A study of Hordeum vulgare with 39 samples.

Results

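Among the genes of the barley (Hordeum vulgare) seed, 68 of 83990 table entries had their highest level in the oldest endosperm sampled, at 32 days after pollination (DAP), and little signal in the other seed tissues. They were chosen from the counts themselves. Counts were turned into CPM (counts scaled to a common library total) and averaged over the 3 libraries of each of 13 groups, and an entry was kept when endosperm at 32 DAP had the highest of the 13 means, when that mean was at least 20 CPM, and when it was at least 10 times the highest mean of embryo and of seed maternal tissues. A cap of 200 entries was not reached. The 32 DAP peak and the gap to the other tissues are therefore what the genes were chosen for, and they are given as a description. Calls on these contrasts are printed further down, but they cannot test the peak or the gap.

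The seeds came from the six-rowed spring cultivar Morex, without any treatment or mutant, and were separated by hand into endosperm (32, 24, 16, 8 and 4 DAP), embryo (32, 24, 16 and 8 DAP) and seed maternal tissues (24, 16, 8 and 4 DAP). Poly-A RNA of 39 libraries, 3 per group, was sequenced, and library totals ran between 6148131 and 36732347 counts. The labels call the libraries replicates without saying that they came from separate plants, so p-values measure the spread between these libraries only. The dissected endosperm holds several cell types, and in such a bulk sample fewer cells of a type and less RNA per cell cannot be told apart.

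The cereal endosperm fills with starch and storage protein during grain development. Its inner starchy cells then die as the grain matures and dries, while the outer aleurone layer survives desiccation and, on germination, secretes enzymes that digest the stored reserves. The maturation phase is known for abscisic acid signalling and for the build-up of storage and desiccation-protective proteins. The files do not pair the barley identifiers with gene names, and none of the 83990 identifiers matched the RefSeq gene table supplied, so the genes are described by identifier and no role is given to any of them; the labelled tissues could likewise not be checked against marker genes. Identifiers are written without their shared start (HORVU.MOREX.r3.) and transcript suffix. CPM is not scaled by gene length, so levels are compared for the same gene between samples and not between genes.

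Taken as a group, the 68 genes held 11.04%, 11.9% and 10.0% of all counts in replicates 1, 2 and 3 of 32 DAP endosperm, a mean of 10.98% ± 0.915 (SD, n = 3). Earlier in the endosperm series, 4 DAP libraries gave them a mean of 0.0206% ± 0.00500, 8 DAP libraries 0.0738% ± 0.00375, 16 DAP libraries 2.78% ± 1.37 and 24 DAP libraries 6.20% ± 0.712 (SD, n = 3 each). The 16 DAP libraries were the most scattered, between 1.54% and 4.25%. In embryo the mean share was 0.00164% in the 8 DAP libraries, 0.0159% and 0.0951% in those of 16 and 24 DAP, and 0.182% ± 0.0309 in those of 32 DAP (SD, n = 3). In seed maternal tissues it was 0.0340%, 0.0692% and 0.0533% in the libraries of 4, 8 and 16 DAP, and 0.241% ± 0.0998 in those of 24 DAP (SD, n = 3). Few genes carried most of these counts: 5HG0464410 alone gave 35.7% of the members' counts at 32 DAP, and the 10 most abundant gave 87.1%.

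**Figure D1:**
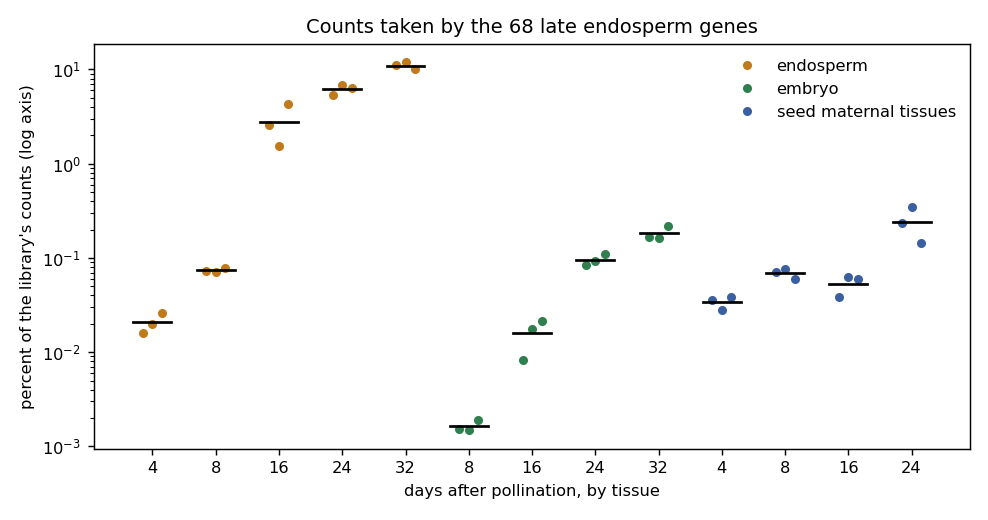
Percent of each library's counts (log axis) that fell on the 68 genes, by tissue and days after pollination. Points are libraries and bars are means of 3; endosperm at 32 DAP stood at 10.0% to 11.9%, while embryo at 32 DAP had a mean of 0.182% and seed maternal tissues at 24 DAP a mean of 0.241%.

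The gene with the most counts, 5HG0464410, had 38504, 41405 and 38360 CPM at 32 DAP, against 21997, 23618 and 27154 CPM at 24 DAP. At 16 DAP its libraries held 12029, 3677 and 5996 CPM, and at 8 DAP none exceeded 0.814 CPM. All 3 oldest libraries thus lay above all younger ones. Outside the endosperm it was also the member with the most embryo counts, at 1192, 1228 and 1579 CPM at 32 DAP, against 225, 235 and 523 CPM at 24 DAP, without overlap. The edgeR test described below did not call this difference in embryo.

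The next gene, 2HG0117660, had 15227, 15579 and 11464 CPM at 32 DAP, against 7021, 9616 and 10707 CPM at 24 DAP. It was present before the grain filled, with 33.7, 39.2 and 37.1 CPM at 4 DAP and 42.2, 33.2 and 22.7 CPM at 8 DAP. At 16 DAP 1 library, replicate 3 with 10747 CPM, stood above the others, which had 3062 and 3000 CPM. It was found in every embryo and maternal group as well, at 145, 151 and 200.5 CPM in embryo at 32 DAP and at 226, 473 and 172 CPM in seed maternal tissues at 24 DAP.

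The genes differed in how much of their final level was already there at 24 DAP. The 24 DAP mean was under 10% of the 32 DAP mean for 7 genes, between 10% and 50% for 34 and 50% or more for 27, with a median of 43.8%. The ratio of the 32 to the 24 DAP mean ran from 1.06 to 119, with a median of 2.28. In 54 genes the lowest 32 DAP library was above the highest 24 DAP library, a pattern that 20.3% of the 29594 genes tested showed, and in 14 the 2 stages overlapped. The lowest 32 DAP library was above all 36 other libraries in 49 genes, against 1.39% of genes tested. edgeR's quasi-likelihood test called 25 of the 68 higher and 0 lower at 32 than at 24 DAP, against 6.18% and 7.20% of all genes tested. At 32 DAP it called all 68 higher and 0 lower in endosperm than in embryo, against 19.2% and 20.4% of all genes tested. The rule itself required the 32 DAP endosperm mean to be the highest and at least 10 times every embryo mean. The choice of genes thus set the direction of these counts, and the background genes were not chosen in that way. The counts therefore cannot test the peak or the gap, and nothing is read from them. The 32 DAP endosperm and embryo libraries also form a run of library numbers of their own, so that stage and run cannot be told apart for 32 against 24 DAP.

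The genes that appeared latest in the endosperm included 3 consecutive identifiers, 5HG0491100, 5HG0491110 and 5HG0491120. Gene 5HG0491110 had 1372, 1009 and 1329 CPM at 32 DAP, against 7.94, 51.8 and 4.11 CPM at 24 DAP. Gene 5HG0491100 had 818, 681 and 875 CPM at 32 DAP, against 2.59, 17.9 and 3.61 CPM at 24 DAP. Gene 5HG0491120 had 392, 294 and 375 CPM at 32 DAP, against 2.07, 5.96 and 0.913 CPM at 24 DAP. All 3 genes were highest in replicate 2 among the 24 DAP libraries and lowest in replicate 2 among the 32 DAP libraries. Reads from near-identical neighbouring copies could be split between entries, and how such reads were counted is not given in the sources used here.

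With the endosperm series read backwards from 32 DAP, 32 genes had stayed at 10% or more of their 32 DAP mean since 16 DAP and 22 since 24 DAP, while 7 passed that level only at 32 DAP. Another 3 had held it since 4 DAP and 4 since 8 DAP. These 7 early genes are named here after their values were seen. Gene 6HG0601090 had 588, 704 and 342 CPM at 32 DAP and 83.98, 97.6 and 180 CPM at 4 DAP. Gene 5HG0477910 had 22.4, 25.0 and 24.5 CPM at 32 DAP, close to the 19.8, 25.3 and 22.4 CPM it had at 8 DAP. The libraries of these 2 stages overlapped, so its peak at 32 DAP was smaller than the spread between libraries. The other early genes were 5HG0499860, at 10% or more of its 32 DAP mean since 4 DAP, and 1HG0047910, 2HG0208900, 1HG0068050 and 6HG0540540, since 8 DAP. This level does not mark first presence: 1HG0047910 had 580, 322 and 90 counts at 4 DAP. The mean rose at every step of the series in 31 of the 68 genes.

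**Figure D2:**
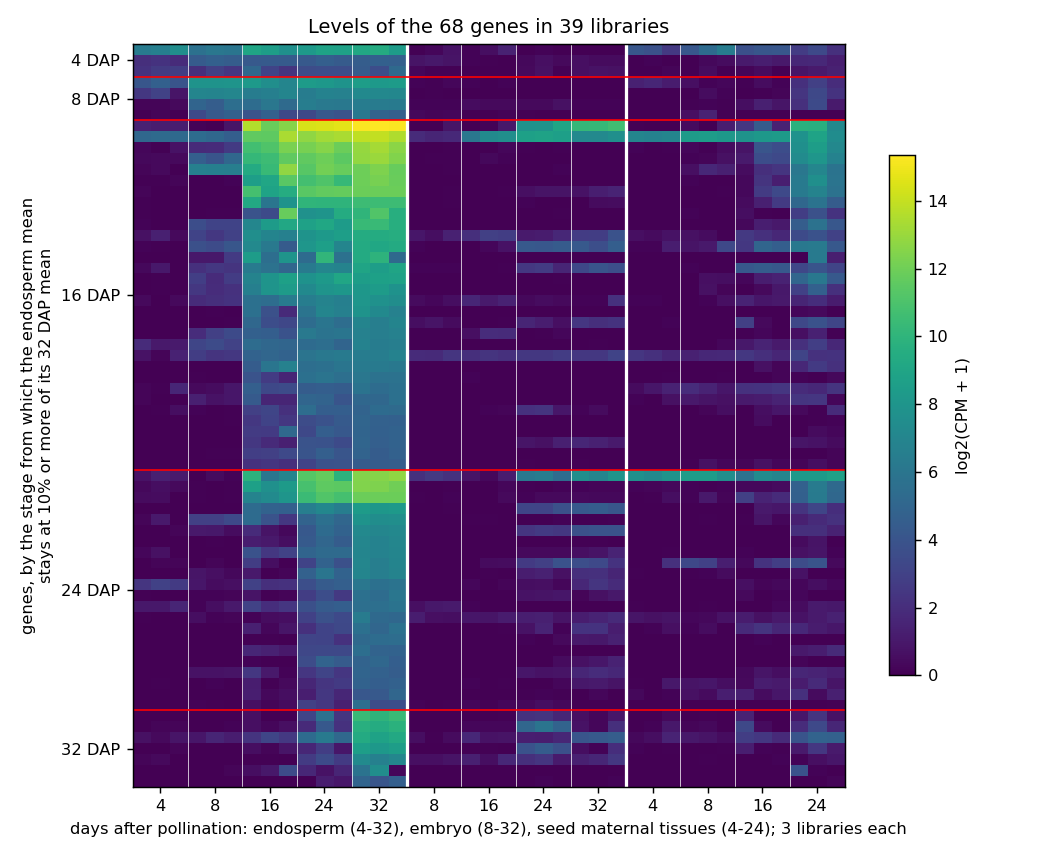
Level of each of the 68 genes (rows) in each of 39 libraries (columns), as log2(CPM + 1). Rows are grouped by the stage from which the endosperm mean stayed at 10% or more of the 32 DAP mean (3, 4, 32, 22 and 7 genes, top to bottom); the 2 largest blocks light up at 16 and at 24 DAP in the endosperm columns on the left, and most embryo columns stay dark.

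The steps up to 24 DAP were tested with edgeR's quasi-likelihood test over all 29594 genes that passed the filter on low counts, as did all 68 members. Calls needed an adjusted p below 0.05 and a log2 fold change of 1 or more in either direction. The rule did not set the order of the earlier stages, but it capped each of their means at the 32 DAP mean and those of embryo and seed maternal tissues at 10% of it. A choice of late genes thus favours rises over falls at these steps. All genes tested were not chosen in that way, so the background shares set beside the counts are not matched for it, and the counts are given as a description.

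At the first step, 22 genes were higher and 9 lower at 8 than at 4 DAP, against 25.9% and 20.9% of all genes tested (46.8% in either direction), so the share of members called was near the background. Their median log2 fold change was 1.04, against 0.16 over all genes. With library size as the only scaling, 24 members were higher and 5 lower, while the median over all genes moved to 0.84. The share of all genes called with that scaling is not given here. In 27 members no library of either stage exceeded 3 counts, the floor used here. The largest fitted rise, set against 0 counts, was that of 1HG0010640, which had 2.89, 6.41 and 9.98 CPM at 8 DAP and 0 counts in all 3 libraries at 4 DAP, at least 23.8-fold higher when 4 DAP is set to the floor of 3 counts per library (edgeR adjusted p = 1.9e-05). Gene 1HG0014400, measured at both stages, had 100.1, 97.3 and 94.6 CPM at 8 DAP, against 0.138, 0.317 and 0 CPM at 4 DAP, a log2 fold change of 8.38 ± 1.06 (SE, edgeR adjusted p = 1.29e-07). The 2 largest fitted falls were of genes barely above the floor, with bounds of only 1.802-fold and 1.02-fold: 5HG0465310 had 0 counts at 8 DAP in every library, against 8, 8 and 0 counts at 4 DAP (edgeR adjusted p = 0.00325), and 1HG0070600 had 0 counts at 8 DAP in every library, against 6, 4 and 0 counts at 4 DAP (edgeR adjusted p = 0.0137). The second of these calls was lost without replicate 1 of 4 DAP. The 4 DAP endosperm libraries form a run of library numbers of their own, so stage and run cannot be told apart at this step.

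Between 16 and 8 DAP, 52 of the 68 were called higher and 0 lower, against 10.1% and 13.1% of all genes tested, and no member had an unadjusted p under 0.05 with a fall or was called lower by DESeq2. Their median log2 fold change was 5.66, against -0.04 over all genes. In 25 of the 52 the 8 DAP libraries were all at or under 3 counts. The largest fitted rises belonged to the neighbouring identifiers 7HG0751740 and 7HG0751750. Gene 7HG0751740 had 1772, 480 and 733 CPM at 16 DAP and 0 counts in all 3 libraries at 8 DAP, at least 6291-fold higher (edgeR adjusted p = 2.31e-10). Gene 7HG0751750 had 621, 62.2 and 230 CPM at 16 DAP and likewise 0 counts at 8 DAP, at least 1922-fold higher (edgeR adjusted p = 1.76e-09). Both had nearly identical levels in the 3 libraries of 32 DAP, at 3825, 3754 and 3879 CPM for the first and 1448, 1436 and 1491 CPM for the second.

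Gene 2HG0204720, named for its class of 24 DAP level, was at 0.689, 1.51 and 1.14 CPM in endosperm at 4 DAP, at 0, 0.359 and 0.106 CPM at 8 DAP and at 929, 64.0 and 119 CPM at 16 DAP. It went on to 2536, 3293 and 941 CPM at 24 DAP and 5704, 6029 and 7102 CPM at 32 DAP. In seed maternal tissues the same gene had 205, 148 and 231 CPM at 4 DAP and 351, 357 and 194 CPM at 8 DAP, well above its endosperm level at both stages.

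At the third step, 27 genes were higher and 0 lower at 24 than at 16 DAP, against 3.47% and 3.53% of all genes tested. Their median log2 fold change was 1.59, against 0 over all genes, and 42 had a rise and 0 a fall at an unadjusted p under 0.05 (DESeq2 called 27 higher and 0 lower). Without replicate 2 of 16 DAP the count was 18. The largest fitted rise was that of 4HG0392660, with 11.04, 28.4 and 20.2 CPM at 24 DAP and 2, 0 and 0 counts at 16 DAP, at least 108-fold higher (edgeR adjusted p = 4.61e-05). Gene 5HG0461930 followed by fitted value, set against 0 counts, with 0, 1.33 and 0.867 CPM at 24 DAP and 0 counts at 16 DAP. Its mean was at least 3.96-fold higher (edgeR adjusted p = 0.0331), but replicate 1 of 24 DAP had 0 counts as well. The call was lost in 9 of 14 alternative settings. Among genes above the floor in some library of both stages, the late gene 5HG0491110 rose by a fitted log2 fold change of 6.83 ± 1.34 (SE, edgeR adjusted p = 0.0014). It had 7.94, 51.8 and 4.11 CPM at 24 DAP and 0.523, 0 and 0 CPM at 16 DAP. These 16 DAP values were 8, 0 and 0 counts, so the fold change rests there on replicate 1 alone.

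**Figure D3:**
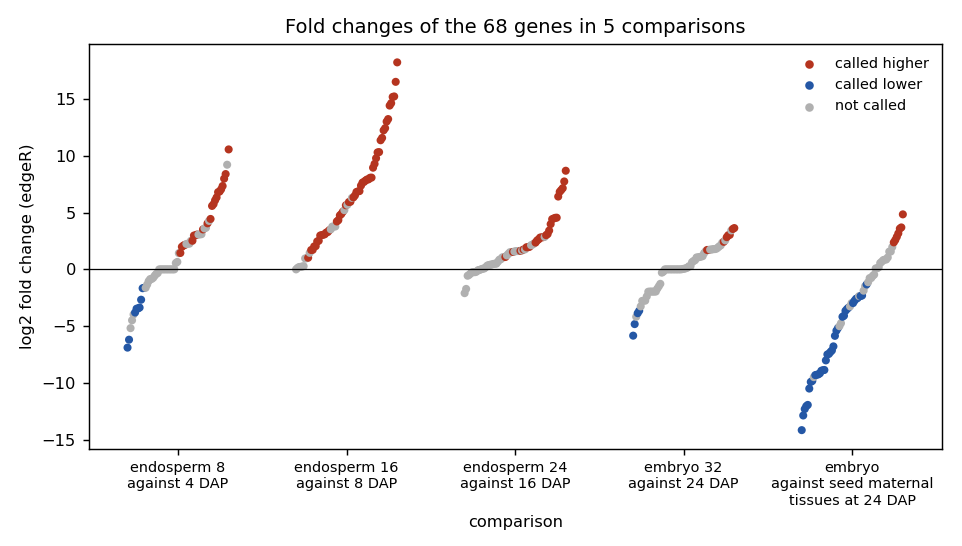
Log2 fold change from edgeR of the 68 genes in each of 5 comparisons, sorted within a comparison, 1 point per gene and coloured by call. The rise at 16 against 8 DAP covers 52 genes and the rise at 24 against 16 DAP 27; embryo lay below seed maternal tissues at 24 DAP in 36.

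The libraries of a stage did not always agree. At 32 DAP the highest library was within 2-fold of the lowest for 59 genes and within 5-fold for 66, and the coefficient of variation had a median of 14.3%, against 9.40% for the 6060 genes with at least 20 CPM at that stage. At 24 DAP 42 genes were within 2-fold, and at 16 DAP 13. Replicate 1 was the highest 16 DAP library in 39 genes and replicate 3 in 20, so no single library was high throughout. Gene 4HG0342810, chosen after its values were seen, had 13.9, 9.71 and 3556 CPM at 16 DAP, and 1038, 2281 and 775 CPM at 32 DAP. Its highest 16 DAP library was thus above every 32 DAP library.

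Both genes beyond 5-fold at 32 DAP, again named after their values were seen, were low in replicate 3. Gene 1HG0001430 had 57.3, 185 and 0.214 CPM at 32 DAP, an 862-fold range, against 2.24, 0.663 and 1.96 CPM at 24 DAP. Gene 1HG0001100 had 660, 947 and 36.5 CPM at 32 DAP, against 39.7, 1097 and 52.3 CPM at 24 DAP. For neither gene does the 32 DAP peak hold in every library, and replicate 3 of 32 DAP was no outlier for the group of genes as a whole, at 10.0% of counts.

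**Figure D4:**
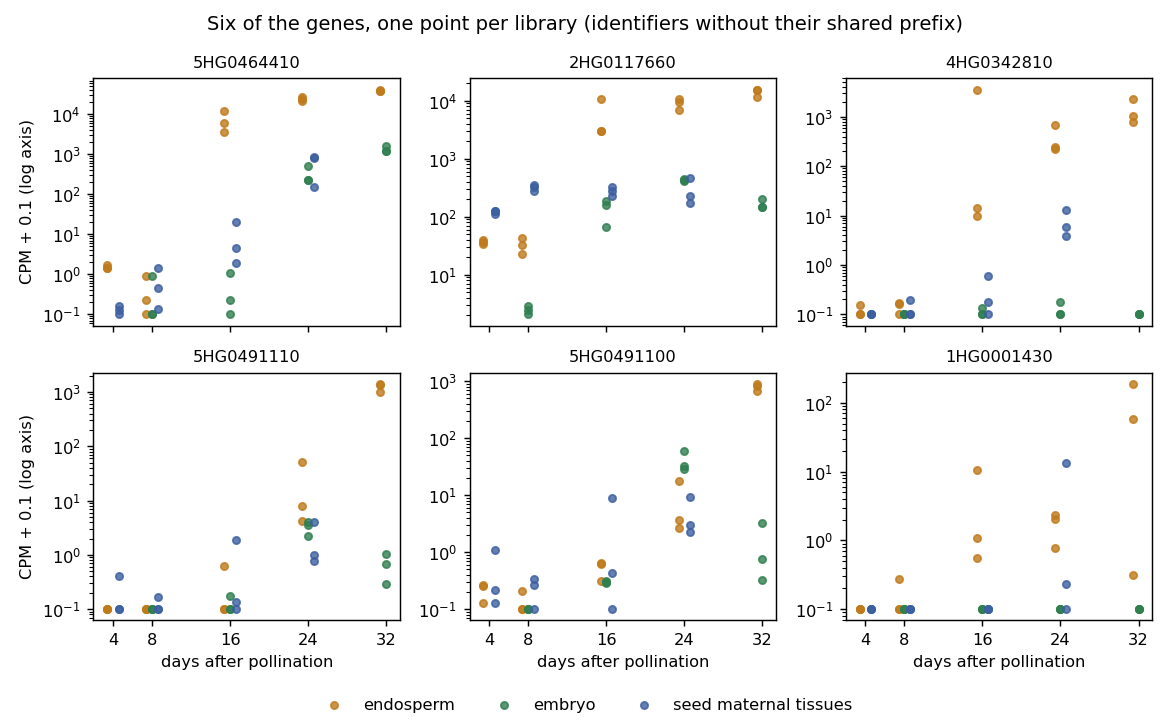
Level of 6 of the genes in every library, as CPM + 0.1 on a log axis, against days after pollination, 1 point per library and 1 colour per tissue. The highest 16 DAP libraries of 5HG0464410, 2HG0117660 and 4HG0342810 stood at 12029, 10747 and 3556 CPM, 5HG0491110 and 5HG0491100 came up at 32 DAP, and 1HG0001430 was near 0 in 1 of its 3 libraries at 32 DAP.

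Outside the endosperm the rule had set only an upper limit. Seed maternal tissues at 24 DAP were the highest other group for 40 of the 68 genes and embryo at 32 DAP for 13. In embryo, 23 genes had at most 3 counts in each of the 12 libraries. Of these, 17 had stayed at 10% or more of their 32 DAP endosperm mean since 16 DAP. For 25 genes the embryo mean at 32 DAP was at least 1% of the endosperm mean at 32 DAP. Among them, 13 had stayed at 10% or more of their 32 DAP endosperm mean since 24 DAP. The highest shares were 9.75% for 5HG0432740, with 13.1, 14.5 and 13.9 CPM in embryo at 32 DAP, and 9.30% for 2HG0217460, with 2.14, 2.84 and 2.23 CPM.

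In embryo, 8 genes were called higher and 4 lower at 32 than at 24 DAP, against 1.83% and 5.35% of all genes tested (7.18% in either direction). A fit to only these 6 libraries called 14 higher and 4 lower, 9 of them shared with the 12. The share of all genes called in that smaller fit is not given here. In 29 members no library of either stage exceeded 3 counts. Gene 2HG0176940 had 15.4, 18.1 and 22.1 CPM in embryo at 32 DAP, against 1.42, 1.36 and 2.17 CPM at 24 DAP, a log2 fold change of 3.55 ± 0.53 (SE, edgeR adjusted p = 2.96e-05). In endosperm the same gene had 653, 459 and 617 CPM at 32 DAP, against 40.0, 79.4 and 34.8 CPM at 24 DAP. Gene 5HG0420710 had 1.01, 1.17 and 0.769 CPM in embryo at 32 DAP, against 0, 0 and 0.187 CPM at 24 DAP, with a log2 fold change of 3.63 ± 1.11 (SE, edgeR adjusted p = 0.0301). Leaving out replicate 1 or replicate 2 of either stage ended the call.

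The 4 genes lower in embryo at 32 DAP included 2 of the 3 consecutive late identifiers. Gene 5HG0491100 had 0.647, 0.227 and 3.16 CPM in embryo at 32 DAP, against 32.7, 58.3 and 29.0 CPM at 24 DAP, a log2 fold change of -4.81 ± 1.08 (SE, edgeR adjusted p = 0.00334). Gene 5HG0491120 had 0.485, 0.114 and 2.99 CPM in embryo at 32 DAP, against 13.7, 21.5 and 12.2 CPM at 24 DAP, a log2 fold change of -3.64 ± 0.81 (SE, edgeR adjusted p = 0.00335). At 24 DAP these genes were therefore higher in embryo than in endosperm, in every library, although the rule placed them among endosperm genes by their 32 DAP level. The third of the run, 5HG0491110, had 0.566, 0.189 and 0.930 CPM in embryo at 32 DAP, against 3.49, 3.91 and 2.13 CPM at 24 DAP, and was not called. The other falls were 3HG0292090, with 0 counts at 32 DAP in every embryo library, against 0.236, 0.496 and 0.262 CPM at 24 DAP (edgeR adjusted p = 0.0158), and 4HG0402870, with 0.121, 0.341 and 0.0405 CPM at 32 DAP, against 3.55, 3.97 and 0.936 CPM at 24 DAP (edgeR adjusted p = 0.0116). Leaving out embryo replicate 2 of 24 DAP, or replicate 2 or 3 of 32 DAP, ended the call of 3HG0292090, and 4HG0402870 is named after its values were seen.

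Between embryo and seed maternal tissues, which the rule had limited alike, 7 genes at 24 DAP were called higher and 36 lower in embryo than in seed maternal tissues, against 22.0% and 25.0% of all genes tested (47.0% in either direction). With a term for the run of library numbers 4 were higher and 32 lower, and with only these groups fitted 4 and 34. The shares of all genes called in these other fits are not given here. All 3 maternal libraries of 24 DAP and 1 of the 3 embryo libraries belong to the same run. The median log2 fold change was -2.97, against 0 over all genes, and in 24 of the 36 every embryo library was at or under 3 counts. Gene 1HG0012640 had 0 counts in embryo in every library, against 80.6, 200.1 and 59.1 CPM in seed maternal tissues, at least 715-fold lower (edgeR adjusted p = 7.8e-08). Gene 1HG0012570 had 0, 0 and 0.0374 CPM in embryo, against 166, 264 and 111 CPM in seed maternal tissues, at least 1137-fold lower (edgeR adjusted p = 8.33e-11). In endosperm 1HG0012570 had 7325, 8335 and 5460 CPM at 32 DAP, against 3057, 3986 and 2849 CPM at 24 DAP. Among the genes higher in embryo, 5HG0491100 had 32.7, 58.3 and 29.0 CPM in embryo, against 2.84, 9.34 and 2.17 CPM in seed maternal tissues, a log2 fold change of 3.17 ± 0.97 (SE, edgeR adjusted p = 0.0065). The largest fitted rise, set against 0 counts, was that of 1HG0077530, with 0.118, 0 and 0.299 CPM in embryo. Seed maternal tissues had 0 counts, so the embryo mean was at least 1.43-fold higher (edgeR adjusted p = 0.0049). This call needed embryo replicate 3. The rise of 3HG0292090 was at least 3.40-fold in the mean, from the embryo values given above. Seed maternal tissues had 0, 0 and 0.0667 CPM of it (edgeR adjusted p = 0.00631).

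The maternal signal moved with the library. For the 23 genes with at least 100 CPM in endosperm at 24 DAP, the maternal mean at 24 DAP was 4.82% of the endosperm mean at 24 DAP in the median, between 1.47% and 20.8%, against 0.380% for the same comparison at 16 DAP. By library the median was 3.26% in replicate 1, 7.58% in replicate 2 and 2.06% in replicate 3, and replicate 2 was the highest in 21 of the 23. The embryo mean at 24 DAP was 0.00652% of the endosperm mean in the median of these genes. Carry-over of endosperm at dissection and expression in the maternal tissues cannot be told apart in these values. Seed maternal tissues were not sampled at 32 DAP, so the gap to them at that stage was not measured. At 24 DAP in both tissues, the maternal share over all 68 genes had a median of 5.32% and a range of 0% to 276%. The highest was that of 1HG0001430, with 13.3, 0.130 and 0 CPM in seed maternal tissues, and 5HG0491120 stood at 78.1%. Set against the endosperm mean at 32 DAP, the highest maternal share was 9.86%, for 1HG0005520. It had 31.9, 70.5 and 18.6 CPM in seed maternal tissues at 24 DAP. Next was 3HG0324450 at 9.25%, with 8.86, 13.7 and 8.21 CPM.

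**Figure D5:**
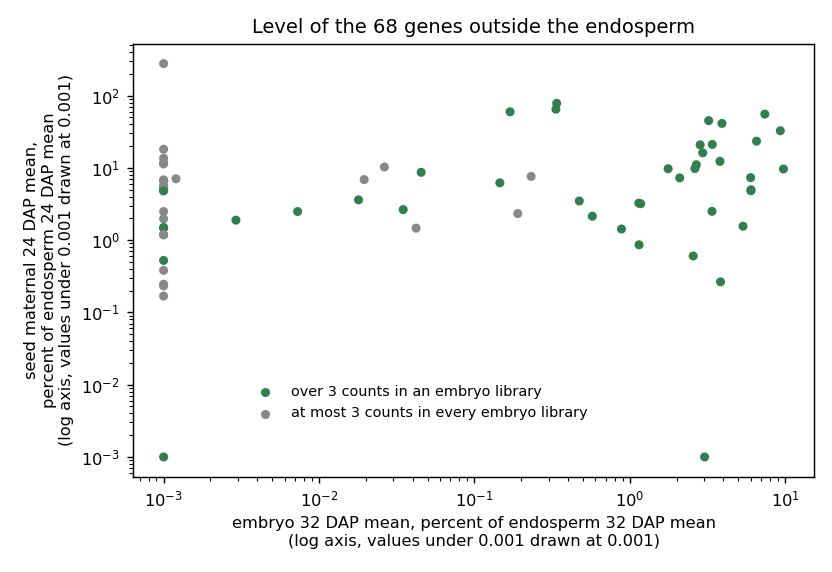
For each of the 68 genes, the embryo mean as a percent of the endosperm mean at 32 DAP (x, log axis) and the seed maternal mean as a percent of the endosperm mean at 24 DAP (y, log axis). Values under 0.001 are drawn at 0.001; grey points are the 23 genes with at most 3 counts in every embryo library, several of which sit at the left edge with a maternal share over 1%.

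The identifiers themselves carry a chromosome code and an order. Code 5H held 18 members and 1H held 16, followed by 2H with 10, 4H with 7, 3H and 7H with 6 each and 6H with 5. Code 5H made up 26.5% of members, against 16.3% of the 13687 genes with at least 20 CPM in any group. Code 1H made up 23.5% of members, against 13.4% of those genes, and code 3H 8.82%, against 15.3%. Of the 16 members on 1H, 9 lay in the first 15% of the 9547 1H identifiers, at ranks 110 to 1264, a cut set after the values were seen. In 8 runs of consecutive identifiers stood 17 of the 68 members, or 25%. The same rule applied to endosperm genes peaking at 24 DAP gave 6 of 50 genes in runs (12%), and at 16 DAP 11 of 76 (14.5%). These shares are descriptions, and their difference was not tested.

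Near the limits of the rule, the lowest member by 32 DAP mean was 7HG0657600 at 20.8 CPM and the first outside was 6HG0624490 at 18.5 CPM. At the 10-fold limit the last inside was 1HG0005520, with a gap of 10.1-fold, and the first outside was 3HG0288690 with 9.90-fold. The second of these had a mean of 2898 CPM in endosperm at 32 DAP, against 439 CPM at 24 DAP, and 293 CPM in embryo at 32 DAP.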

How the data were processed

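RNA was extracted with kits from a pair of suppliers, and poly-A libraries were sequenced as single-end reads, per the labels' protocols. The authors deposited whole-number read counts per annotation entry, not normalized and not pooled, with 1 column per library; all columns were matched to a sample by name (0 unmatched). The submitters' processing notes name bcl2fastq, HISAT2 2.1.0, SAMtools and Subread 1.5.2. The genome build, the use of strand and the handling of reads with several matches are not given in the sources used here.

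CPM was computed over column totals. Tests used edgeR 4.0.16 in R 4.3.3 (quasi-likelihood, TMM scaling, filter on low counts). The fit had 1 coefficient for each of 13 groups over all 39 libraries, with Benjamini-Hochberg adjustment over all genes. Each SE of a log2 fold change was derived from the test, as the absolute fold change over the square root of the F statistic. It was not estimated on its own. Alternatives included DESeq2 1.42.0, other scalings, no filter, a replicate block, a term for the run of library numbers and leaving out each library. The procedure was tested on simulated data. A value against a group with at most 3 counts in every library is a bound at that floor, which covers counting error only. The bound is the mean of the higher group over the mean floor of the other. It holds for group means and not for each library.

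The members and lists were chosen with earlier results of these data known. Genes named are the most abundant members overall and in each class of 24 DAP level, the largest called rises and falls in each comparison, those with the highest embryo or maternal share, the longest run of identifiers and those at the limits of the rule; exceptions are marked in the text. Planned lists of cell type markers and pathway genes could not be used, because identifiers were not paired with names.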

Additional observations from a re-analysis of the deposited data

Results flagged for a closer look

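In 5 genes all 3 endosperm libraries of 32 DAP lay above all 3 of 24 DAP while all 3 embryo libraries of 32 DAP lay below all 3 of 24 DAP, counting genes with over 3 counts in each embryo library of 24 DAP. The upward direction in endosperm is what the genes were chosen for, and the difference between the tissues was not tested. The share of all genes tested with this pattern was not counted, so nothing is read from the number. On the log2 scale, the embryo mean at 32 DAP over that at 24 DAP was -4.90 for 5HG0491100, -3.72 for 5HG0491120 and -2.50 for 5HG0491110, the 3 consecutive late identifiers. It was -1.37 for 2HG0117660, which had 145, 151 and 200.5 CPM in embryo at 32 DAP, against 427, 452 and 407 CPM at 24 DAP. For 3HG0292090, which had 0 counts in embryo at 32 DAP, it was -1.48 with that stage set to 3 counts per library. The edgeR test did not call the embryo falls of 2HG0117660 and 5HG0491110.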

How the results depend on the processing

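The list depended on the gap required: a 20-fold gap left 45 of 68 genes. Other forms of the rule gave 48 to 94 genes; TMM-scaled libraries gave 85, of which 64 were members, and leaving out each 32 DAP library gave 66 to 68.

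Leaving out each library in turn gave 26 to 30 called members at 8 against 4 DAP, 44 to 52 at 16 against 8 DAP, 18 to 31 at 24 against 16 DAP, 9 to 12 for embryo at 32 against 24 DAP and 40 to 45 for embryo against seed maternal tissues. Other settings gave 27 to 34, 45 to 54, 20 to 30, 10 to 18 and 36 to 46 in the same order. With library size as the only scaling, the median log2 fold change of all genes was 0.84 at 8 against 4 DAP, against 0.16 with TMM, and -0.48 at 16 against 8 DAP, against -0.04. A term for the run of library numbers gave 20 calls at 24 against 16 DAP, 19 of them shared with the 27.

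A replicate block gave 31, 49, 25, 11 and 42 calls in that order. Of 15 same-numbered pairs, 6 had a correlation of deviations over 0.1 (range -0.09 to 0.195), and in no comparison did all 3 pairs pass it, so the numbers were not taken to pair the libraries. In 10 of 15 cases a library correlated best with its own number, a hint from the data. Replicates 1 and 2 of endosperm at 16 and 24 DAP also share a run of library numbers that replicate 3 is not in.

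For the largest called rises and falls in each comparison, 209 alternative values kept direction and call, 20 lost the call and 0 reversed. Other named results were not part of this count. Low counts limit the early endosperm and embryo values most.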
